A study of Mus musculus with 9 samples.

Results

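RNA levels of genes of insulin and FoxO signalling and of muscle atrophy were measured in a mouse cell line given doxorubicin, alone or with interferon gamma. The genes were chosen by name from the array platform's annotation: the ubiquitin ligase genes Fbxo32 and Trim63, the transcription factor genes Foxo1, Foxo3 and Foxo4, the receptor genes Insr and Igf1r, the receptor substrate genes Irs1 and Irs2, and the kinase gene Akt1. Of these 10 named genes, 9 had a transcript cluster (the probes grouped for 1 transcript) annotated with that symbol alone, each gene exactly 1, out of 30050 genes measured in all. Insr had no such cluster and was not analysed here.

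The cells were HL-1, which the labels give as a mouse cardiomyocyte line of cardiac origin, in medium with serum. Con cells received PBS, DOX cells 0.3 µM doxorubicin, an anthracycline that poisons topoisomerase II, and DOX_IFNg cells the same dose together with 20 ng/ml IFN-γ. Each group had 3 arrays, no group received IFN-γ without doxorubicin, and how long the cells were treated is not given in the sources used here. Whether the 3 repetitions of a group were separate cultures is not said either, so p-values reflect only the variation among these 9 arrays, and that variation may be technical. All 3 groups were samples of 1 cell line.

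Insulin and insulin-like growth factors bind the tyrosine kinase receptors encoded by Insr and Igf1r, which phosphorylate the docking proteins encoded by Irs1 and Irs2 and so activate phosphoinositide 3-kinase and AKT. AKT phosphorylates FoxO proteins and keeps them out of the nucleus. When AKT activity is low, FoxO proteins enter the nucleus and can induce Fbxo32 (atrogin-1, the substrate-binding subunit of an SCF-type ubiquitin ligase) and Trim63 (MuRF1, a RING-type ubiquitin ligase of the sarcomere). Both ligases are known from the wasting of skeletal and heart muscle. This regulation acts largely on proteins, and the arrays measured RNA.

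Several facts of the whole series bear on these genes. Levels are log2 values, so a difference of 1 is a 2-fold change. A gene was taken as dim where its mean over all arrays lay under 4.69, the 95th percentile of 1752 olfactory, vomeronasal and taste receptor genes. By this limit 12148 of 30050 genes were not dim. The labelled cell type was borne out by few of its markers: 2 of 11 cardiomyocyte markers (Nkx2-5 and Tnnt2) lay above the limit in Con, while Myh6 (4.29), Nppa (3.97) and Myl7 (4.12) were dim. Of 12 skeletal muscle markers 7 lay above it in Con, among them the myogenic factors Myog (8.18) and Myod1 (6.03), as did 4 of 8 fibroblast, 1 of 8 immune and 0 of 7 endothelial markers. Arrays are written by group and replicate number, as Con1. The highest value, 19.9, was the same on Con1, DOX1, DOX2, DOX3, DOX_IFNg1 and DOX_IFNg2, and any pair of these held 82 to 186 identical values, against 1 to 17 in all other pairs. What sets these 6 arrays apart is not given in the labels. Because the classes are spread unevenly over the groups, values fitted with array class as a term are given where they ended the call of a member or a pathway gene named here.

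DOX cells carried more Fbxo32 and Irs2 RNA and less Akt1, Igf1r and Foxo4 RNA than Con cells. Fbxo32 was 1.61-fold higher and Irs2 1.37-fold higher, while Akt1 was 1.52-fold lower, Igf1r 1.41-fold lower and Foxo4 1.26-fold lower. Irs1, Trim63, Foxo1 and Foxo3 did not pass the test. Calls rest on limma, a linear model with moderated variances fitted to all 9 arrays, and on a Benjamini-Hochberg adjusted p under 0.05 over all genes. In DOX minus Con 5 of 9 members were called, against 15.6% of all genes and 33% of the genes that were not dim. The members were chosen with earlier results of these data known, so such shares only describe them. By direction, 2 members rose against 8.06% of all genes and 3 fell against 7.53%. The median of the 9 log2 differences was -0.04 and that of all genes -0.01, but the median size without sign was 0.34 for the members and 0.11 for all genes. The arrays of DOX and Con did not overlap for 6 members, against 32.9% of all genes.

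**Figure D1:**
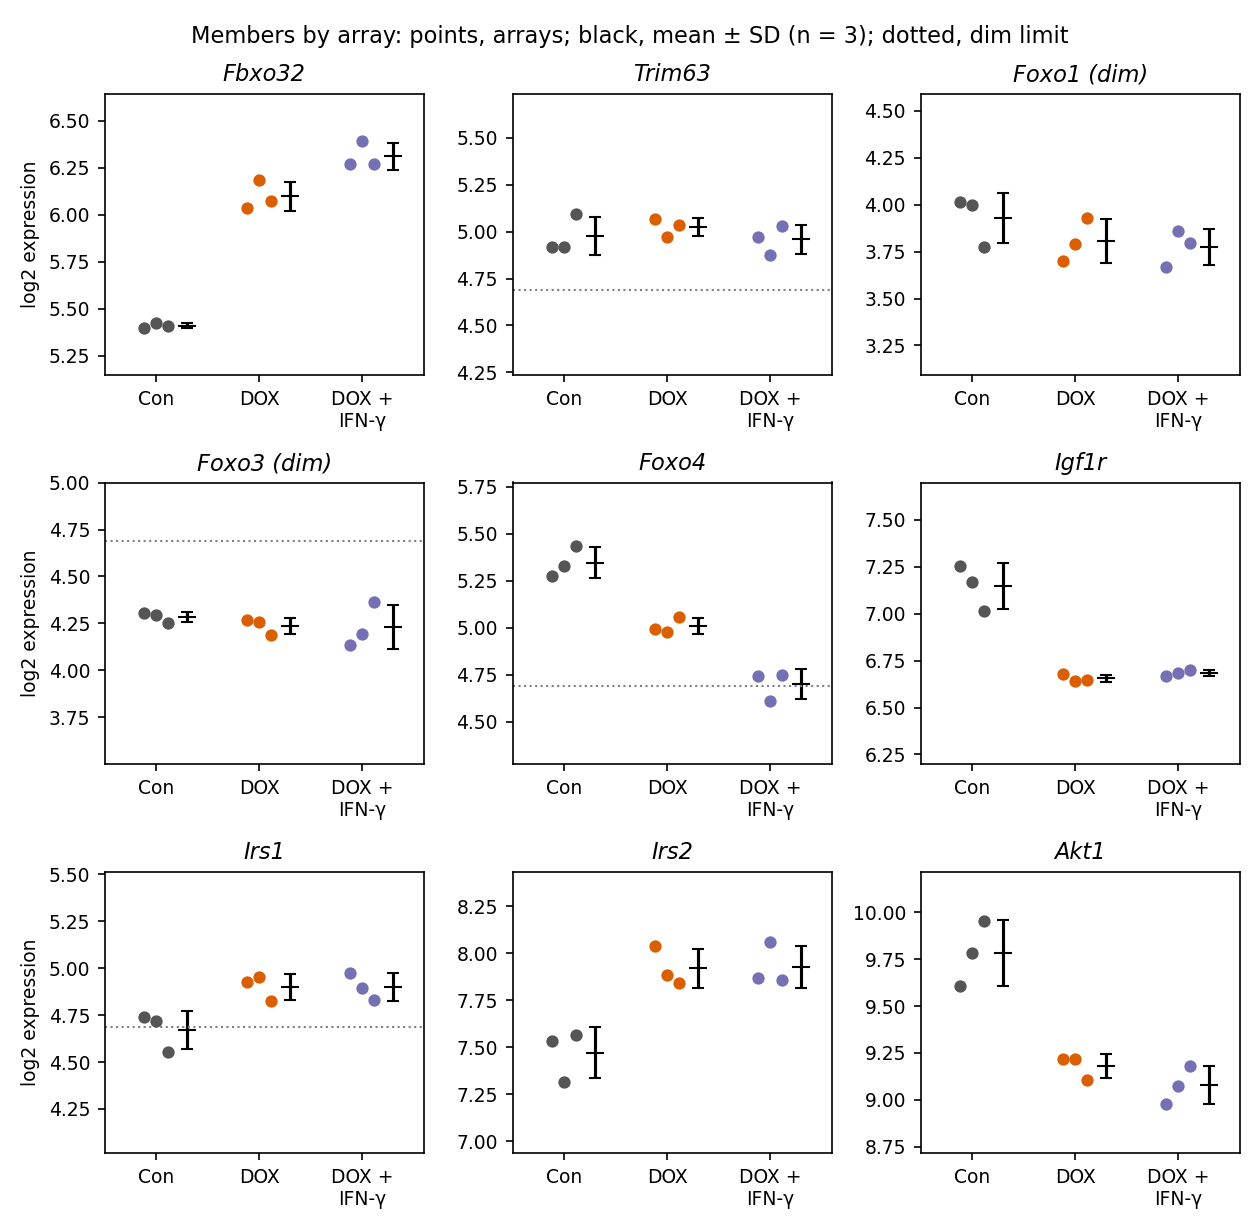
Log2 expression of the 9 measured members on each array of Con, DOX and DOX + IFN-γ (DOX_IFNg), with the group mean ± SD (n = 3) in black and the dim limit of 4.69 as a dotted line where it falls in the panel; every panel spans the same range of log2 units, and levels should not be compared between genes. Fbxo32 and Irs2 lay higher, and Akt1, Igf1r and Foxo4 lower, on every treated array than on any Con array.

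Of the atrophy ligases, Fbxo32 rose and Trim63 did not pass the test. Fbxo32 lay at log2 levels of 5.40, 5.42 and 5.41 on the Con arrays, 6.04, 6.18 and 6.07 on the DOX arrays, and 6.27, 6.40 and 6.27 on the DOX_IFNg arrays. The 3 groups did not overlap, with Con lowest and DOX_IFNg highest. Fbxo32 rose in DOX by 0.69 (SE 0.06, 95% interval 0.56 to 0.82, 3 arrays per group, limma adjusted p = 0.000111). Trim63 lay at log2 levels of 4.92, 4.92 and 5.10 in Con, 5.07, 4.97 and 5.03 in DOX, and 4.97, 4.87 and 5.03 in DOX_IFNg. These ranges overlapped, and every array lay above the dim limit. The log2 difference of Trim63 in DOX minus Con was 0.05 (SE 0.07, 95% interval -0.11 to 0.20, adjusted p = 0.749), and a test of Fbxo32 against Trim63 was not made.

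Skeletal muscle, fibroblast and some other cell type markers moved beside these ligase genes. The mean log2 level over all 12 skeletal muscle markers was 5.34 to 5.41 in Con, 5.0 to 5.11 in DOX and 4.94 to 5.02 in DOX_IFNg, with 4 markers called lower and 3 higher in DOX. Over 8 fibroblast markers it was 8.05 to 8.23 in Con, 7.67 to 7.68 in DOX and 7.66 to 7.73 in DOX_IFNg, with 4 called lower and 1 higher. Over 11 cardiomyocyte markers it was 4.51 to 4.55 in Con, 4.43 to 4.47 in DOX and 4.40 to 4.47 in DOX_IFNg, with Tnnt2, cardiac troponin T, called lower (fell by 1.24, adjusted p = 5.32e-05) and 0 higher. Over 8 immune markers it was 4.08 to 4.12 in Con, 4.10 to 4.21 in DOX and 4.09 to 4.17 in DOX_IFNg, with Cd14 called higher (adjusted p = 0.0483) and 0 lower. Of 7 endothelial markers 0 were called. Among the skeletal muscle markers Myog fell most, by 3.42 (limma adjusted p = 5.57e-06). Acta1 (-0.70), Tnnt3 (-0.55) and Myh3 (-0.40) were also called lower, while Myod1 (0.76), Chrna1 (0.42) and the dim Des (0.30) rose. The skeletal muscle and cardiomyocyte means thus lean on single genes, Myog and Tnnt2. The fibroblast mean leans on the collagen genes Col1a1 (-1.13), Col1a2 (-1.03) and Col3a1 (-1.87). The other fibroblast markers called in DOX were dim, with Lum (-0.38) lower and Thy1 (0.21) higher. The part of these cell types in the changes of the members was not tested. In such bulk RNA, fewer cells that express a gene and less of its RNA per cell cannot be told apart.

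Of the FoxO transcription factors, Foxo4 fell, while Foxo1 and Foxo3 were dim. Foxo4 lay at log2 levels of 5.28, 5.33 and 5.44 in Con, 5.0, 4.98 and 5.06 in DOX, and 4.74, 4.61 and 4.75 in DOX_IFNg. The groups did not overlap, with Con highest and DOX_IFNg lowest, and the DOX_IFNg mean of 4.70 lay next to the dim limit. Foxo4 fell by 0.34 on the log2 scale in DOX (SE 0.06, 95% interval -0.48 to -0.20, adjusted p = 0.00656). Foxo1 lay at log2 levels of 4.01, 4.0 and 3.78 in Con, 3.70, 3.79 and 3.93 in DOX, and 3.67, 3.86 and 3.80 in DOX_IFNg. Foxo3, another member of the same factor family, lay at 4.30, 4.29 and 4.25 in Con, 4.27, 4.26 and 4.19 in DOX, and 4.14, 4.19 and 4.36 in DOX_IFNg. The groups overlapped for Foxo1 and for Foxo3, and all of these values lay under the dim limit. The log2 differences in DOX minus Con were -0.13 for Foxo1 (95% interval -0.33 to 0.08, adjusted p = 0.442) and -0.04 for Foxo3 (95% interval -0.19 to 0.10, adjusted p = 0.746). That of Foxo3 turned to 0.01 with array class as a term.

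At the head of the pathway, the receptor gene Igf1r fell. Igf1r, which encodes the receptor of insulin-like growth factor 1, lay at log2 levels of 7.26, 7.17 and 7.02 in Con, 6.68, 6.64 and 6.65 in DOX, and 6.67, 6.68 and 6.70 in DOX_IFNg. The Con arrays were all higher than the treated arrays, and the SD was 0.12 in Con against 0.02 in DOX and 0.02 in DOX_IFNg. Igf1r fell by 0.49 on the log2 scale in DOX (SE 0.06, 95% interval -0.64 to -0.35, adjusted p = 0.00105).

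Of the receptor substrates, Irs2 rose and Irs1 lay higher without passing the test. Irs2 lay at log2 levels of 7.53, 7.31 and 7.57 in Con, 8.04, 7.88 and 7.84 in DOX, and 7.87, 8.06 and 7.86 in DOX_IFNg. All treated arrays lay above all Con arrays, and DOX and DOX_IFNg overlapped. Irs2 rose in DOX by 0.45 (SE 0.09, 95% interval 0.24 to 0.66, adjusted p = 0.0102). With array class as a term the log2 difference of Irs2 was 0.39 and the call was lost (adjusted p = 0.0657). Among the arrays sharing the highest value, the 3 DOX arrays lay 0.39 above Con1, with no test since Con then has 1 array. Irs1 lay at log2 levels of 4.74, 4.72 and 4.55 in Con, 4.92, 4.95 and 4.82 in DOX, and 4.97, 4.89 and 4.83 in DOX_IFNg. The treated arrays did not overlap Con, and 1 Con array lay under the dim limit. The log2 difference of Irs1 in DOX minus Con was 0.23 (SE 0.07, 95% interval 0.07 to 0.39, adjusted p = 0.0596). Irs1 was called where limma was fitted only to the genes that were not dim (adjusted p = 0.0361). It was also called where only protein-coding genes were fitted (adjusted p = 0.0333).

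Akt1, which encodes an AKT kinase that acts on FoxO proteins, fell in DOX. It lay at log2 levels of 9.61, 9.78 and 9.96 in Con, 9.22, 9.22 and 9.11 in DOX, and 8.98, 9.08 and 9.18 in DOX_IFNg. The Con arrays were all higher than the treated arrays, and DOX and DOX_IFNg overlapped. Akt1 fell by 0.60 on the log2 scale in DOX (SE 0.09, 95% interval -0.81 to -0.39, adjusted p = 0.00279). Con was the most variable group (SD 0.17 against 0.06 in DOX), and the fall was 0.43 in size against Con1, the only Con array of its class. In that comparison Igf1r lay 0.60 lower, and without Con3 the log2 difference was -0.51 for Akt1 and -0.56 for Igf1r.

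**Figure D2:**
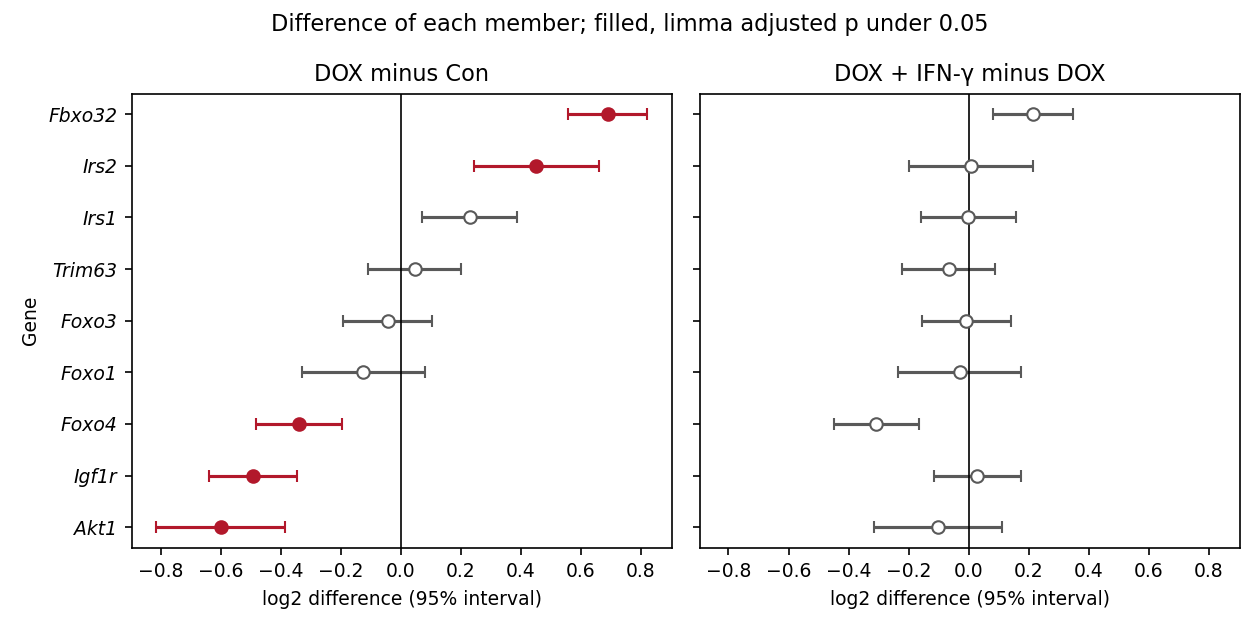
Log2 difference of each measured member (point) with its 95% interval (bar) from the fit of all 9 arrays, for DOX minus Con on the left and for DOX + IFN-γ (DOX_IFNg) minus DOX on the right. Filled points passed an adjusted p of 0.05: 5 members in DOX minus Con, from -0.60 for Akt1 to 0.69 for Fbxo32, and 0 members on the right, where Fbxo32 and Foxo4 have intervals that do not cross 0.

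None of the members was called when cells given IFN-γ with doxorubicin were compared with cells given doxorubicin alone. Of the 9 members 0 were called in DOX_IFNg minus DOX (limma adjusted p between 0.899 and 0.999), against 0% of all genes. At an unadjusted p under 0.05 there were 2 members, Foxo4 and Fbxo32, against 5% of all genes. Foxo4 lay 0.31 lower with IFN-γ (log2 difference -0.31, SE 0.06, 95% interval -0.45 to -0.16, unadjusted p = 0.001, adjusted p = 0.899), and its 3 arrays all lay under the DOX arrays. Fbxo32 lay 0.21 higher (SE 0.06, 95% interval 0.08 to 0.35, unadjusted p = 0.00551, adjusted p = 0.966), with its 3 arrays all above the DOX arrays. Groups without overlap were found for these 2 of the 9 members and for 11.2% of all genes. Among all genes, the differences of Foxo4 and Fbxo32 ranked at the 2.07 and 96.3 percentiles. Neither passed the adjusted threshold in any of 18 alternative fits.

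The remaining members differed little between DOX_IFNg and DOX, with intervals that span 0. The log2 differences were -0.10 for Akt1 (95% interval -0.32 to 0.11), -0.07 for Trim63 (-0.22 to 0.09) and -0.03 for Foxo1 (-0.24 to 0.17). They were 0.03 for Igf1r (-0.12 to 0.17), 0.01 for Irs2 (-0.20 to 0.22), -0.01 for Foxo3 (-0.16 to 0.14) and 0.00 for Irs1 (-0.16 to 0.16).

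DOX_IFNg against Con shares its control arrays with DOX against Con, so its values are given beside the first and not as a repeat of it. In DOX_IFNg minus Con 5 of 9 members were called, against 17.4% of all genes, with 2 higher against 8.01% and 3 lower against 9.41%. The log2 differences were 0.90 for Fbxo32 (1.87-fold, adjusted p = 2.99e-05) and 0.46 for Irs2 (adjusted p = 0.00887), against 0.69 and 0.45 in DOX. They were -0.70 for Akt1 (adjusted p = 0.00113), -0.65 for Foxo4 (adjusted p = 0.000218) and -0.46 for Igf1r (adjusted p = 0.00132), against -0.60, -0.34 and -0.49 in DOX. The test of each of these gaps is DOX_IFNg minus DOX, in which 0 of 9 members passed. Irs1 lay 0.23 higher (adjusted p = 0.0556), and Trim63 (-0.02), Foxo1 (-0.16) and Foxo3 (-0.05) did not pass either, with adjusted p between 0.307 and 0.891. With array class as a term the log2 difference of Trim63 was 0.01.

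Promoter windows of the members were read from RefSeq (GRCm38.p6), each 300 bases long, 250 before to 50 after an annotated start. Of the 10 named genes 7 had a window there, with 8 windows in all. Fbxo32, Foxo4 and Insr had no window, so their promoters were not searched. The letters GTAAACA, bound by forkhead factors, and CAAAACA, the core of an insulin response element, were searched on both strands. The 4 windows that held a match are shown because they carry the letters through which FoxO factors are known to bind DNA. Capitals mark the matches, all of which read as the reverse complement, TGTTTAC for the first and TGTTTTG for the second.
Trim63 (chr4:134314870-134315169, plus strand): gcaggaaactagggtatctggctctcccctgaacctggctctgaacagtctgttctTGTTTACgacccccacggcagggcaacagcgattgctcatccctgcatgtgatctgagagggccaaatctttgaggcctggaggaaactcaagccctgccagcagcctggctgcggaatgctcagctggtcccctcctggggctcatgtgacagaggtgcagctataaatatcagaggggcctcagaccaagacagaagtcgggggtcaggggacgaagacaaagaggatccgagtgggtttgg
Akt1 (chr12:112674835-112675134, minus strand): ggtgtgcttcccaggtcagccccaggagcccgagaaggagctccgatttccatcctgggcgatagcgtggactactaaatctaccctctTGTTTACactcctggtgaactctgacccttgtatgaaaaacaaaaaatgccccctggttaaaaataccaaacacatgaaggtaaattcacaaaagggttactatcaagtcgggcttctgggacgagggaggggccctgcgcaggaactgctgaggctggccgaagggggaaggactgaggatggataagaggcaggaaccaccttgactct
Irs1 (chr1:82291390-82291689, minus strand): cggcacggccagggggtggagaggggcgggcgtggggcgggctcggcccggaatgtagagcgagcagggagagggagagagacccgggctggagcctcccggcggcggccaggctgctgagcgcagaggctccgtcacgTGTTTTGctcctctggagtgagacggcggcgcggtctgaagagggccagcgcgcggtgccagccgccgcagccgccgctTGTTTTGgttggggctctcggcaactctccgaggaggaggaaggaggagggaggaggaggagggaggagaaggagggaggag
Irs2 (chr8:11008880-11009179, minus strand): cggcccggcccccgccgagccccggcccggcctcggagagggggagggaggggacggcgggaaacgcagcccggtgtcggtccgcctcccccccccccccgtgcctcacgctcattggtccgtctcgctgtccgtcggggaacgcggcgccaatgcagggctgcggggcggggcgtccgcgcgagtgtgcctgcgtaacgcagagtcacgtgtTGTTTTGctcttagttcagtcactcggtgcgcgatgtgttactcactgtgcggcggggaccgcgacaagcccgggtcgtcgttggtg
The forkhead letters occurred in the windows of Trim63 (from base 57) and Akt1 (from base 90), and in 3.65% of 32851 windows of this length. The insulin response letters occurred in the window of Irs1 (from bases 140 and 219) and in that of Irs2 (from base 214), and in 6.28% of all windows. No match overlapped another. The windows of Foxo1, Foxo3 and Igf1r and a further window of Akt1 held neither. The genes with the forkhead letters were Akt1, which fell in DOX, and Trim63, which did not pass. Those with the insulin response letters were Irs2, which rose, and Irs1, which lay 0.23 higher without passing. A match describes the letters of a window and was not tested as a site.

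Other genes of the pathway were taken from 9 lists, members left out. Of 183 listed genes 163 were measured, and 48 rose and 22 fell in DOX. These were 42.9% of the 163, against 15.6% of all genes and 33% of the genes that were not dim. The lists too were chosen with earlier results of these data known, so their shares are a description. The shares of the PI3K and AKT list (26.7%) and of the other muscle ubiquitin ligases (26.1%) lay under 33%. Those of the other lists lay above it, from 36.4% to 60%, though the lists also hold dim genes. Without DOX1, 5 of 20 genes of the mTOR and GSK3 branch were called. In that fit 2 of 8 SCF core and ubiquitin genes and 4 of 16 other atrophy regulators were called. In DOX_IFNg minus DOX 0 of 163 passed by limma, with a lowest adjusted p of 0.976. At an unadjusted p under 0.05 there were 11 of the 163, near the 5% found among all genes. Some genes stand in more than 1 list.

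**Figure D3:**
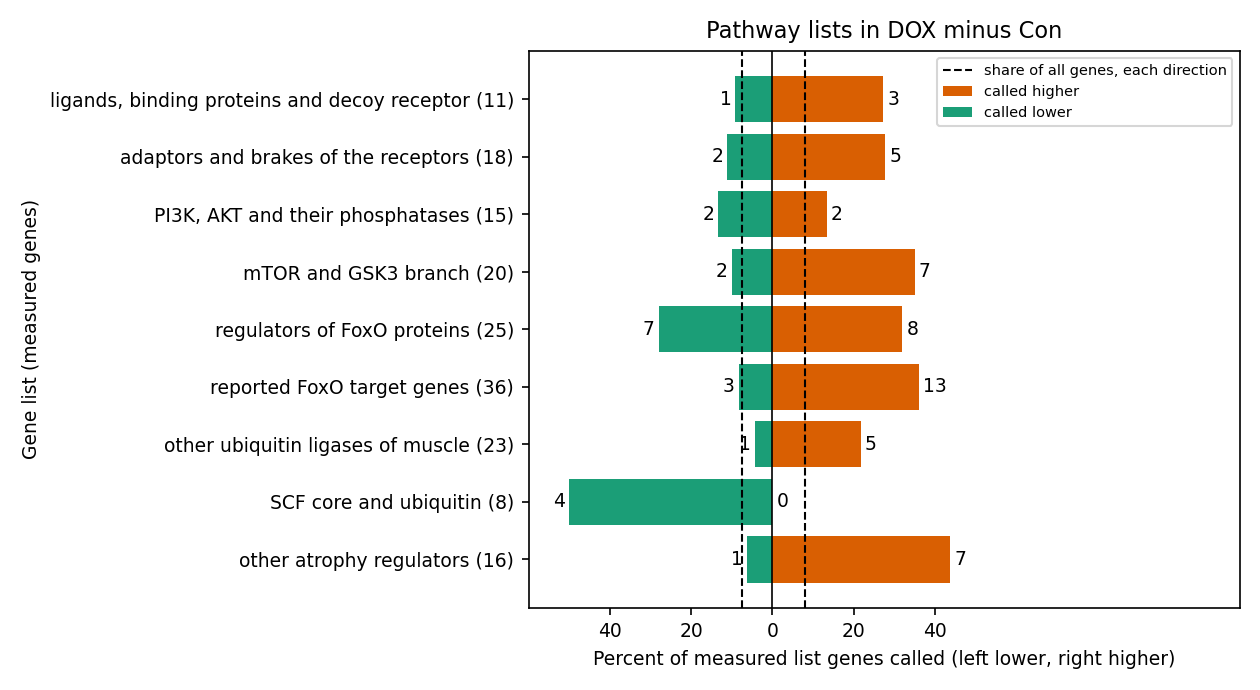
Percent of the measured genes of each pathway list (number in brackets) called higher (right) or lower (left) in DOX minus Con, with the number of called genes at each bar. The dashed lines mark the share of all 30050 genes called in each direction, 8.06% higher and 7.53% lower; the list of SCF core and ubiquitin genes has 4 of 8 lower and 0 higher.

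Around the receptors, genes that tune growth factor supply and receptor output changed in either direction. Of 11 measured ligands, binding proteins and the decoy receptor, 3 rose and 1 fell (median log2 difference 0.09, against -0.01 for all genes). Igfbp7 rose by 0.93 (SE 0.12, adjusted p = 0.00109), Igfbp4 by 0.41 (adjusted p = 0.00488) and Igf2r, the receptor that clears insulin-like growth factor 2, by 0.28 (adjusted p = 0.00907). Igfbp5, a binding protein of the growth factors, fell by 0.70 on the log2 scale (SE 0.06, adjusted p = 7.93e-05). Of 18 adaptors and brakes of the receptors, 5 rose and 2 fell (median 0.03). Shc1, an adaptor that links the receptors to Ras, rose by 0.89 (SE 0.11, adjusted p = 0.000823). Trib3, a pseudokinase that can bind AKT, rose by 0.87 (adjusted p = 0.000288) from a dim Con level of 4.35. The inhibitory adaptors Grb10 and Grb14 fell by 0.83 (SE 0.05, adjusted p = 2.73e-05) and 0.78 (SE 0.06, adjusted p = 8.06e-05).

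Around AKT, Phlpp1 fell and Pdpk1 rose. Of 15 genes of PI3K, AKT and their phosphatases, 2 rose and 2 fell (median -0.06). Akt2, named here after its values were seen and not dim, did not pass (-0.07, limma adjusted p = 0.478). Phlpp1, a phosphatase of AKT, fell by 0.79 (SE 0.06, adjusted p = 9.08e-05), and Pdpk1, the kinase PDK1 that phosphorylates AKT, rose by 0.60 (SE 0.06, adjusted p = 0.000313). Pik3cb, a catalytic subunit, rose by 0.24, but not where Con2, Con3, DOX2 or DOX3 was left out (highest adjusted p = 0.0751). The regulatory subunit Pik3r2 fell by 0.20, but not where DOX1 was left out (adjusted p = 0.0585). Array class as a term ended the calls of Pik3cb (adjusted p = 0.0983) and Pik3r2 (adjusted p = 0.0781), and fitting only the arrays of Con and DOX ended that of Pik3cb (adjusted p = 0.0537).

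In the branch from AKT to mTOR and GSK3, 7 of 20 genes rose and 2 fell (median 0.03). Ddit4 (REDD1) rose by 1.51 (SE 0.21, adjusted p = 0.00138), Sesn2, a sestrin, by 1.07 (SE 0.11, adjusted p = 0.00034), Tsc2, tuberin, by 0.61 (adjusted p = 0.00151) and Eif4ebp1, which binds the cap-binding factor eIF4E, by 0.59 (adjusted p = 0.00116). The genes that fell were Eif4e (-0.32) and Rptor (-0.22), named for their small number. Leaving out Con1, Con2, DOX1, DOX2 or DOX_IFNg3 ended the call of Eif4e (highest adjusted p = 0.13), and leaving out Con1, Con2 or DOX3 ended that of Rptor (highest adjusted p = 0.0777). Array class as a term ended the calls of Eif4e (adjusted p = 0.161) and Rptor (adjusted p = 0.0912). Quantile normalization moved the log2 difference of Eif4e to -0.19 (adjusted p = 0.203), and median centring or trended robust moderation ended its call as well. Rptor was also lost with median centring (adjusted p = 0.0964) or with only Con and DOX fitted (adjusted p = 0.0567). Without DOX1 the list had 5 called genes in place of 9.

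Regulators of FoxO proteins had 8 genes higher and 7 lower of 25 (median 0.10). Cdk2, the S-phase kinase that can phosphorylate FoxO1, fell by 1.45 (SE 0.09, adjusted p = 2.8e-05), and Prmt1, an arginine methyltransferase that modifies FoxO1, fell by 0.84 (adjusted p = 0.000293). Mapk9, the kinase JNK2, rose by 0.91 (SE 0.11, adjusted p = 0.000634) and Ywhag, a 14-3-3 protein of the family that retains phosphorylated FoxO in the cytoplasm, by 0.77 (adjusted p = 0.000802). The other 14-3-3 genes on the list are named here after their values were seen. Ywhaq fell by 0.66 (adjusted p = 0.000288), Ywhah by 0.30 (adjusted p = 0.018) and Ywhae by 0.29 (adjusted p = 0.0196). Ywhab (-0.22, adjusted p = 0.0514), Ywhaz (-0.12, adjusted p = 0.145) and the dim Sfn (0.21, adjusted p = 0.0657) did not pass. The call of Ywhah was lost under 6 of the alternatives (highest adjusted p = 0.0664) and that of Ywhae under 9, among them quantile normalization, where its log2 difference was -0.0043 (adjusted p = 0.988). Array class as a term was one of these for Ywhah (adjusted p = 0.0521) and for Ywhae (adjusted p = 0.0782).

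Reported FoxO target genes other than the members had 13 higher and 3 lower of 36 (median 0.18). Txnip, the thioredoxin-interacting protein, rose by 2.51 (SE 0.13, adjusted p = 1.24e-05), from a log2 level of 7.39 ± 0.09 in Con to 9.89 ± 0.27 in DOX (SD, n = 3). Gadd45a, a growth arrest gene, rose by 1.33 (SE 0.06, adjusted p = 6.51e-06), Ccnd2, cyclin D2, by 1.18 (adjusted p = 2.6e-05) and Cat, catalase, by 1.11 (adjusted p = 0.000267). The genes that fell, named for their small number, were Cdkn1b (-0.88, adjusted p = 0.000534), Fbxo21 (-0.41, adjusted p = 0.00139) and Trib1 (-0.22). Cdkn1b encodes the cell cycle inhibitor p27. The list mixes genes reported as induced by FoxO factors, such as Cdkn1b, with genes reported as repressed, such as Ccnd2. Its counts are therefore no measure of FoxO activity, which was not tested. The call of Trib1 (adjusted p = 0.0477) held, among fits that left out 1 array, only without DOX1 (highest adjusted p of the others = 0.145). It was also lost with array class as a term (adjusted p = 0.163), and after quantile normalization, with median centring, with only Con and DOX fitted or with the replicate block (adjusted p between 0.0812 and 0.104).

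Beside Fbxo32 and Trim63, 5 of 23 other ubiquitin ligases of muscle rose and 1 fell (median 0.06). Wwp1, a HECT-type ligase, rose by 1.36 (SE 0.15, adjusted p = 0.000441). Trim55 (MuRF2), a close relative of Trim63, rose by 0.74 (SE 0.07, adjusted p = 0.000145), its log2 level being 6.47 ± 0.07 in Con and 7.21 ± 0.09 in DOX (SD, n = 3). Mdm2, the p53-induced ligase, rose by 0.64 (adjusted p = 0.00168) and Trim32 by 0.55 (adjusted p = 0.00188), while Fbxo21 was the gene that fell. Of 8 measured SCF core and ubiquitin genes, which include partners of Fbxo32 in its ligase complex, 4 fell and 0 rose (median -0.13). Skp1a, the adaptor that binds F-box proteins, fell by 0.54 (SE 0.07, adjusted p = 0.00105), the conjugating enzyme gene Ube2d1 by 0.59 (adjusted p = 0.00198), Nedd8, the modifier that activates cullins, by 0.60 and Cand1, a cullin exchange factor, by 0.27. Leaving out DOX1 or DOX3 ended the calls of Nedd8 and Cand1 and left 2 called genes in the list. Nedd8 was also lost without Con3 (highest adjusted p = 0.0789), and Cand1 without Con1, Con2, DOX2 or DOX_IFNg3 (highest adjusted p = 0.109). Array class as a term also left 2 called genes, with log2 differences of -0.40 for Nedd8 (adjusted p = 0.117) and -0.29 for Cand1 (adjusted p = 0.0975). The call of Nedd8 was lost too after quantile normalization (adjusted p = 0.0626). That of Cand1 was lost with median centring, trended robust moderation or the replicate block (highest adjusted p = 0.106).

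Of 16 other atrophy regulators, 7 rose and 1 fell (median 0.16). Myog, which can drive Fbxo32 and Trim63 in denervated muscle, fell by 3.42 (SE 0.14, adjusted p = 5.57e-06). Tnfrsf12a, the receptor of the cytokine TWEAK, rose by 0.81 (SE 0.10, adjusted p = 0.00104), the NF-κB subunit Rela by 0.61 (adjusted p = 0.0267) and the activin receptor Acvr2a by 0.59 (adjusted p = 0.0248). Leaving out Con1, Con2, DOX1 or DOX2 ended the call of Rela (highest adjusted p = 0.0905), and leaving out any array of Con or DOX except Con1 ended that of Acvr2a (highest adjusted p = 0.0896). With array class as a term the log2 difference of Acvr2a was 0.38 and its call was lost (adjusted p = 0.119), leaving 4 called genes in the list. The list had 5 called genes without any 1 Con array and 4 without DOX1 or DOX2, in place of 8.

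The protein-coding genes with profiles nearest to each called member were found by the root mean square distance between profiles centred on their own means, over 9 arrays and 17371 genes. The arrays share their groups and normalization, so nearness is a description. Nearest to Fbxo32 were Rprd1a (distance 0.07 on the log2 scale) and Myo6, an unconventional myosin (0.08). Rprd1a differed by 0.75 in DOX minus Con and by 0.21 in DOX_IFNg minus DOX, beside 0.69 and 0.21 for Fbxo32. Nearest to Foxo4 were Nme2, a nucleoside diphosphate kinase (0.07), and the small GTPase gene Rhoa (0.08). Nearest to Igf1r were Cenpo, a centromere protein, and Tpx2, a spindle assembly factor (0.04 each), which differed by -0.50 and -0.51 in DOX minus Con beside -0.49 for Igf1r. Nearest to Irs2 were the Golgi SNARE gene Gosr1 (0.05) and the proprotein convertase gene Pcsk6 (0.06). Nearest to Akt1 were the splicing factor gene Prpf31 (0.05) and Sbf1, a myotubularin-related gene (0.05).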

How the data were processed

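RNA of 9 samples was hybridized to Affymetrix mouse transcript arrays, 1 array a sample. The authors deposited 1 table of log2 values over 65527 transcript clusters, made with RMA (background correction, normalization and summary of probes) per the submitters' processing notes. Its version and settings and a genome build are not given in the sources used here. That the scale is log2 follows from the range of 2.29 to 19.9 and is not written in the table. RMA compresses differences between dim probes.

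The platform annotation gave 1 symbol to 30376 clusters and several to 2117. Where a gene had several clusters (245 genes), the brightest over all arrays stood for it. Group means were fitted to 9 arrays with limma 3.58.1 in R 4.3.3 (6 residual and 2.41 prior degrees of freedom), without further normalization or filter. Two-sided p-values were adjusted over 30050 genes (Benjamini-Hochberg). Precision is limited by the number of arrays. The procedure was tested on simulated data.

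Members and lists were chosen with earlier results of these data known. Named genes were all members, up to 4 called genes per list by size in DOX minus Con, and the 2 genes nearest to each called member. RefSeq's table of GRCm38.p6 held 28940 of the symbols and gave gene types, with 18268 protein coding. Whether replicate numbers pair the arrays is not given in the labels. Correlations of deviations between same-numbered arrays ran from -0.16 to 0.36 and do not settle it. The highest were 0.36 and 0.33, for replicates 1 and 3 of DOX_IFNg and Con, with -0.08 for replicate 2. Alternatives covered normalization, filters, cluster choice, prior, samples fitted, blocks and left-out arrays.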

Additional observations from a re-analysis of the deposited data

How the results depend on the processing

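In 18 alternative fits the count of called members lay between 4 and 6 in DOX minus Con and 5 and 6 in DOX_IFNg minus Con, and was 0 in DOX_IFNg minus DOX. Leaving out single arrays gave 5, 5 and 0 called members. The count of all called genes then ran from 3329 to 4568 in DOX minus Con, from 3770 to 4974 in DOX_IFNg minus Con, and from 0 to 1 in DOX_IFNg minus DOX, with the 1 call found without Con3. With the replicate block 6 members were called in DOX minus Con and 6 in DOX_IFNg minus Con, because Irs1 was also called (adjusted p = 0.0268 and 0.0252), and 0 in DOX_IFNg minus DOX. Whether the replicate numbers pair the arrays is not known. Irs1 was also called in DOX_IFNg minus Con with the dim filter (adjusted p = 0.0337) and over protein-coding genes (0.0329).

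No called member changed sign, and Irs2 in DOX minus Con with array class as a term was the only member call lost. Signs turned only in log2 differences that were not called. With array class as a term these were Foxo3 in DOX minus Con (0.011), Irs1 in DOX_IFNg minus DOX (0.034) and Trim63 in DOX_IFNg minus Con (0.012), and with median centring Trim63 in DOX_IFNg minus Con (0.015). Over left-out arrays, DOX_IFNg minus DOX ranged from -0.084 to 0.031 for Foxo1, from -0.074 to 0.040 for Foxo3, from -0.039 to 0.034 for Irs1 and from -0.057 to 0.067 for Irs2, and DOX_IFNg minus Con from -0.056 to 0.039 for Trim63. The cause was not tested. The dim filter removed Foxo1 and Foxo3, which gave no value there. Signal near the dim limit bounds what can be said of Foxo1, Foxo3, Irs1, Trim63 and, with IFN-γ, Foxo4. The alternatives for the lists were added after the data were seen.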
